A study of Mus musculus with 14 samples.

Results

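The cytosolic ribosomal protein genes of Lewis lung carcinoma (LLC) tumors and of their macrophages are described here. LLC is a mouse lung tumor line. The members were chosen by symbol: Rpl or Rps followed by a digit, or Rplp0, Rplp1, Rplp2 or Rpsa, with the S6 kinase genes (Rps6k) left out. This rule took 63 of the 12924 genes of the deposited tables and used no measured value. It also took Rps19bp1, which encodes a binding partner of the protein S19 and no ribosomal subunit, and the annotated retrocopies Rpl37rt and Rps27rt. None of the deposited genes carried the symbols Rpl10, Rpl22, Rps6, Rps14, Rps27a or Rpsa. The same held for the tissue-restricted relatives Rpl3l, Rpl10l, Rpl26l1, Rpl39l, Rps4l and Rps4y2. The 63 members are thus not the full set of ribosomal proteins, and summed shares cover these members only.

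LLC cells had grown for 14 days in the flank of C57BL/6 hosts that were either wild type (WT) or PI3Kinase-gamma-null (p110g-/-). p110g is the catalytic subunit encoded by Pik3cg and is known mainly from leukocytes. RNA came from 30 mg of whole tumor (3 WT and 3 p110g-/- libraries) or from 1000000 CD11b+Gr1- cells sorted from tumors (4 WT and 4 p110g-/- libraries), called tumor-associated macrophages (TAM) in the labels. The genotype is that of the host animal, since the same line was injected into both. The labels give no age or sex and do not say how many animals a library holds, so the p-values reflect how far these samples spread, and that spread may be technical.

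A ribosome joins a small and a large subunit, each made of ribosomal RNA and of proteins named Rps for the small and Rpl for the large subunit. The mRNAs of these proteins are among the most abundant of growing cells, and they carry a run of pyrimidines at the very start of the transcript, the terminal oligopyrimidine (TOP) element. Through this element LARP1 and mTOR, a kinase that class I PI3K can activate, control their translation and stability. Rpl5 and Rpl11, with the 5S RNA, and also Rps7 can bind Mdm2, the ubiquitin ligase of p53.

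The transcript starts are shown first because the run of pyrimidines is the feature these mRNAs are known to share. Promoter sequences of RefSeq (build GRCm38.p6) were matched to 51 of the 63 members. Those without a match include Rpl36 and Rps20 of the members described below. Each line gives 10 bases before and 20 bases from the annotated start, 5′ to 3′ on the gene's own strand, and capitals mark every run of at least 5 bases that are all C or T. The first 6 are members that were lower in p110g-/- whole tumors, Rpl22l1 is the member with the highest fold change there, and Rps27 and Rps27rt are a parent gene and its retrocopy.
Rpl11, chr4:136053374-136053403, minus strand: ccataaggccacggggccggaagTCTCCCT
Rps7, chr12:28635934-28635963, minus strand: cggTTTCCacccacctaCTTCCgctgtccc
Rpl38, chr11:114668570-114668599, plus strand: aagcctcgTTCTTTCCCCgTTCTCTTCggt
Rpl35, chr2:39005112-39005141, minus strand: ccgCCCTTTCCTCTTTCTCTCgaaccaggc
Rpl37rt, chr5:115110249-115110278, minus strand: caggccagagcccgcacccagcagtgcgtg
Rpl36a, chrX:134585644-134585673, plus strand: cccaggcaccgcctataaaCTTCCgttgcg
Rpl22l1, chr3:28805498-28805527, plus strand: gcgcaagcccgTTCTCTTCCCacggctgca
Rps27, chr3:90213629-90213658, minus strand: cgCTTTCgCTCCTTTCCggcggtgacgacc
Rps27rt, chr9:114982720-114982749, minus strand: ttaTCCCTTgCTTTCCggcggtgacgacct

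A run of at least 8 bases of C or T within 25 bases of the start, on the gene's strand, was found in 26 of the 51 members (51.0%). The same run was found in 23.3% of the genes of the tables that had a promoter sequence and in 19.7% of all 32851 promoters. A member counted if any of its annotated starts had the run, whereas 19.7% is a rate per single promoter. The letters CCGGAAG, on either strand of the 300 bases, were present in 20 of the 51 members (39.2%), against 19.6% of the tables' genes and 8.86% of all promoters. AAGATGGCG was present in 4 members (7.84%), against 3.41% and 1.40%. No overlap between these motifs was removed. A match describes letters only.

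Values are read here as normalized counts, that is, gene counts the authors scaled within each table and rounded. Library totals ran from 33248294 to 38153438 in TAM and from 25883561 to 27586429 in whole tumor. Pik3cg was lower in every library labelled p110g-/- than in any WT library of its table, at 1210 to 2211 against 2748 to 4477 normalized counts in TAM and 242 to 417 against 487 to 616 in whole tumor. All 14 macrophage markers were detected in every TAM library, with summed levels of 27985 to 39826 counts per 1000000 (CPM), against 6268 to 10079 in whole tumors. The TAM libraries numbered 3 and 4 stood apart from those numbered 1 and 2 in both genotypes. Their mitochondrially encoded genes held 7.70% to 14.4% of the library, against 2.51% to 3.21% in numbers 1 and 2.

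The 63 members together held 3.48% ± 0.74 (SD, n = 4) of the WT TAM libraries and 3.20% ± 0.36 (n = 4) of the p110g-/- TAM libraries. In whole tumors they held 6.27% ± 0.17 (n = 3) in WT and 5.47% ± 0.24 (n = 3) in p110g-/-. WT tumors 1 to 3 stood at 6.20%, 6.15% and 6.47%, and the p110g-/- tumors at 5.73%, 5.26% and 5.43%, so the genotypes did not overlap. The ratio of the means was 0.872 over all members. It was 0.875 for the Rpl and 0.869 for the Rps symbols, so both subunits were lower by a similar amount.

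**Figure D1:**
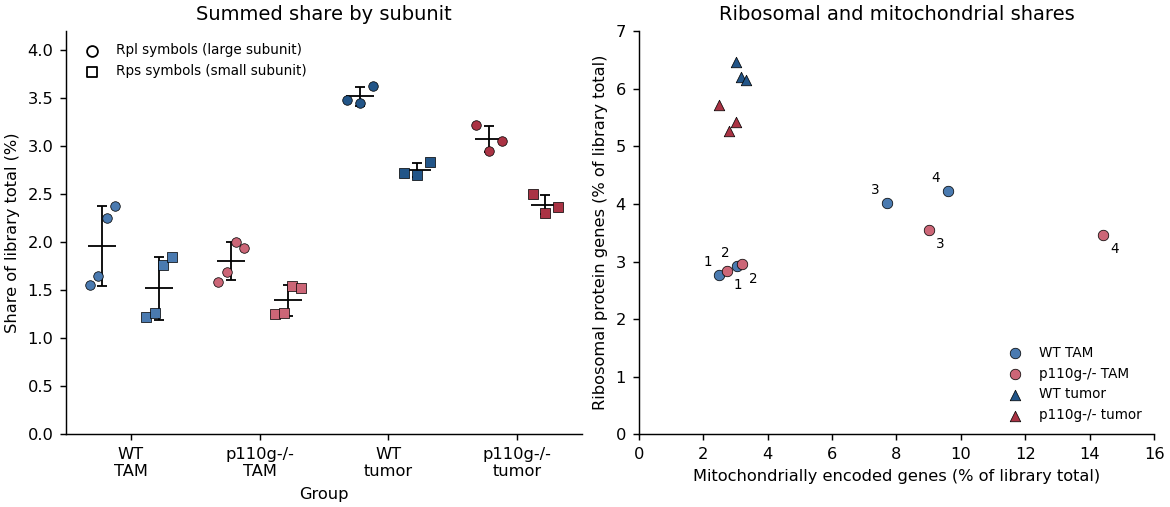
Left, summed share of the library total (%) of the Rpl symbols (circles) and Rps symbols (squares) in each library, with bars for mean and SD of each group. Right, the summed share of all members (%) against that of the mitochondrially encoded genes (%), with TAM libraries labelled by number. Both subunits are lower in all 3 p110g-/- tumors than in the WT tumors, and the TAM libraries numbered 3 and 4 lie above numbers 1 and 2 on both axes.

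In whole tumors of p110g-/- mice, 8 ribosomal protein genes fell and none rose, where 2.25% of all genes did. The 8 were Rpl11, Rps7, Rps20, Rpl36, Rpl38, Rpl35, Rpl37rt and Rpl36a, whose p110g-/- means lay 16.2% to 28.3% below the WT means. These 8 are 12.7% of the members. Of all 12717 genes tested there, 4.35% passed the test (limma, Benjamini-Hochberg adjusted p below 0.05) and 2.1% fell. The shift was wider than the calls: 62 of the 63 members had a fold change below 0, against 48.4% of all genes. In 56 of the 63, every p110g-/- tumor was below every WT tumor, which held for 15.4% of all genes. An unadjusted p below 0.05 was reached by 55 members (87.3%), all of them lower, against 12.6% of all genes that were lower at that p. The median log2 fold change was −0.23, with 0.01 over all genes, and the range was −0.48 to 0.07.

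Rpl11 (gene ID 67025) belongs to the 5S particle of the large subunit. It held 11192, 11087 and 13323 normalized counts in WT tumors 1 to 3 and 8647, 8837 and 8029 in the p110g-/- tumors. The groups did not overlap (log2 fold change −0.48, SE 0.08, adjusted p = 0.028). Rpl5 (gene ID 100503670), its partner in that particle, held 2769, 2485 and 2468 in WT, against 2692, 2082 and 2444 in p110g-/- tumors. Here the groups overlapped and the test was not passed (−0.10, SE 0.10, adjusted p = 0.53).

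Rps7 (gene ID 20115), a small subunit protein that can also bind Mdm2, held 8492, 7437 and 8841 in WT tumors and 6155, 6177 and 5556 in p110g-/- tumors. Its lowest WT value lay above its highest p110g-/- value (−0.47, SE 0.08, adjusted p = 0.026). Rps20 (gene ID 67427), of the head of the small subunit, had WT values of 21551, 20477 and 22977 and p110g-/- tumor values of 18202, 15294 and 16736. The groups were again separate (−0.37, SE 0.08, adjusted p = 0.043). Rps10, another protein of that head, held 44302, 46746 and 51006 against 39402, 34209 and 36639. Its groups were separate too, but its adjusted p of 0.055 missed the threshold; Rps10 was chosen after its values were seen, as the next member by p.

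The other members that fell belong to the large subunit. Rpl36 (gene ID 54217) held 15865, 17081 and 18248 in WT tumors and 14135, 12906 and 13054 in p110g-/- tumors (−0.35, SE 0.07, adjusted p = 0.036). Rpl38 (gene ID 67671), known for its part in the translation of Hox mRNAs in the mouse embryo, held 8745, 7891 and 8254 against 6809, 6122 and 6649 (−0.35, SE 0.06, adjusted p = 0.029). Both genes had separate groups. Rpl35 (gene ID 66489), which sits near the exit of the peptide tunnel, held 7030, 6718 and 7216 against 6032, 5635 and 5379 (−0.30, SE 0.06, adjusted p = 0.034). Rpl36a (gene ID 19982) held 8087, 7783 and 8004 against 6978, 6307 and 6727 (−0.26, SE 0.05, adjusted p = 0.040). For these genes too, no p110g-/- tumor reached the lowest WT tumor. Rpl37rt (gene ID 100502825), annotated as a retrocopy of Rpl37, held 8868, 9021 and 9586 against 8051, 7266 and 7521 (−0.27, SE 0.06, adjusted p = 0.045). The sources used here do not give how the authors counted reads shared with the parent gene, so the value of Rpl37rt is uncertain. Rpl37 itself is not among the members.

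**Figure D2:**
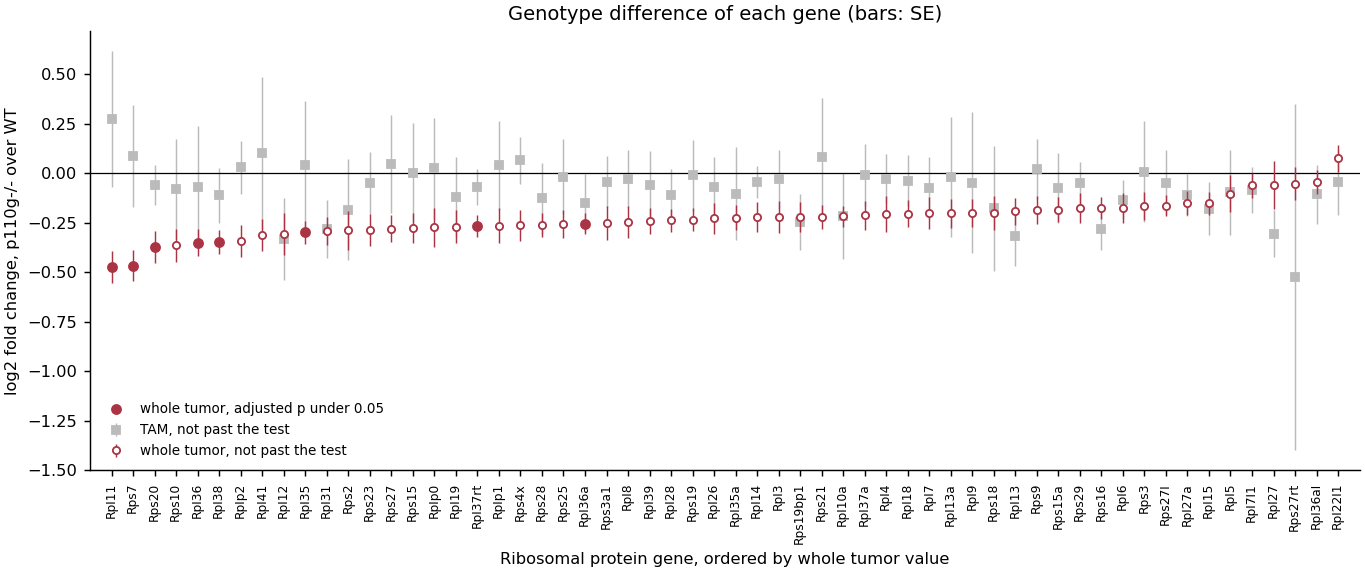
log2 fold change (p110g-/- over WT) with its standard error for 58 of the 63 members, ordered by the whole tumor value. Filled circles mark the 8 members past the test in whole tumor, open circles 50 that did not pass and grey squares the TAM values, none of which passed. All whole tumor values drawn but that of Rpl22l1 lie below 0.

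The P stalk, which recruits the elongation factors to the large subunit, consists of Rplp0, Rplp1 and Rplp2. Rplp0 held the largest share of all members in both tables. Its WT tumors had 91875, 92271 and 97747 normalized counts and its p110g-/- tumors 85598, 71463 and 76487. No p110g-/- value reached a WT value, and the test was missed (−0.27, SE 0.10, adjusted p = 0.13). Rplp1 had a log2 fold change of −0.27 (adjusted p = 0.12) and Rplp2 of −0.34 (adjusted p = 0.056), also with separate groups and without passing.

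The abundant members Rps2, Rpl4, Rpl3, Rps9, Rps3a1 and Rps4x had log2 fold changes of −0.29, −0.21, −0.22, −0.19, −0.25 and −0.26, with adjusted p from 0.088 to 0.19. Among members with known roles outside translation, Rps3, which has been linked to DNA repair and NF-kB, stood at −0.17 (adjusted p = 0.19). Rpl13a, part of the interferon-gamma-activated inhibitor of translation complex, stood at −0.20 (adjusted p = 0.14). Rps19, the gene most often mutated in Diamond-Blackfan anemia, stood at −0.24 (adjusted p = 0.060). Rpl41, which encodes a very short peptide, stood at −0.31 (adjusted p = 0.067), Rpl39 at −0.24 (adjusted p = 0.072) and Rpl26 at −0.23 (adjusted p = 0.12). None of these passed the test, and in all of them the genotypes did not overlap.

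The genotypes overlapped in 7 members: Rps29, Rpl5, Rpl7l1, Rpl27, Rps27rt, Rpl36al and Rpl22l1. Of these, 4 are paralogs or a retrocopy rather than the main gene of their family. Rpl22l1, a paralog of Rpl22, was the 1 member with a fold change above 0. Its WT tumors held 2734, 2574 and 2432 and its p110g-/- tumors 2732, 2518 and 2906 (0.07, SE 0.07, adjusted p = 0.52). Over the 7 paralogs, retrocopies and the binding protein, the median log2 fold change was −0.06. It was −0.23 over the 33 large subunit members and −0.25 over the 23 small subunit members. These medians were not compared by a test.

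In the members, the p110g-/- whole tumors were less alike than the WT whole tumors. p110g-/- tumor 1 was the highest of its group in 53 of the 63 members and p110g-/- tumor 2 the lowest in 56, while WT tumor 3 was the highest of its group in 50. The median coefficient of variation between libraries was 6.81% in p110g-/- and 3.93% in WT tumors. Neither these coefficients nor the order of the libraries were computed over all genes. The number of members that passed moved with single libraries. It was 49 without p110g-/- tumor 1 (15.7% of all genes then passed) and 1 without WT tumor 3 (1.22% of all genes). It was 0 without WT tumor 1 (0.674% of all genes) and 0 without WT tumor 2 (0.243%). It was also 0 without p110g-/- tumor 2 (0.228%) and 0 without p110g-/- tumor 3 (0.542%). With sample quality weights, which let libraries differ in precision, 50 members passed, where 18.1% of all genes did. All 8 named members had log2 fold changes below 0 in each of these fits, and Rpl11 ranged from −0.52 to −0.39 over all alternatives.

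Markers of several cell types differed between the same whole tumors. Summed T cell markers stood at 23.8 to 31.1 CPM in p110g-/- and 5.65 to 13.7 in WT tumors, and 5 of the 10 tested rose. Carcinoma epithelial markers stood at 360 to 402 against 513 to 547 CPM, and 2 of the 4 tested fell. Endothelial markers stood at 83.7 to 99.9 against 52.7 to 77.9 CPM, with none of 10 past the test. Of 20 proliferation genes, 19 had a fold change below 0 (median log2 fold change −0.13) and 1 fell, while their summed levels overlapped at 2593 to 3075 against 2914 to 3146 CPM. Macrophage markers overlapped too, at 6268 to 10079 against 6620 to 8211 CPM. The mitochondrially encoded share was 2.49%, 2.80% and 3.01% in the p110g-/- tumors and 3.16%, 3.32% and 3.02% in the WT tumors, without overlap, and its ratio of 0.873 was close to that of the members. The part of these cells, of proliferation and of the mitochondrial share in the values of the ribosomal protein genes was not tested. In bulk RNA, fewer cells of a type and less RNA per cell cannot be told apart.

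In TAM, no ribosomal protein gene rose or fell with genotype, where 0.112% of the 12475 genes tested passed. At an unadjusted p below 0.05 there were 2 members, both lower, against 5.87% of all genes in either direction and 2.34% that were lower. The median log2 fold change was −0.06 (−0.01 over all genes), and 50 of the 63 members were below 0 (53.2% of all genes). That count rested on single libraries: it was 26 without WT TAM 4, 33 without WT TAM 3 and 34 without p110g-/- TAM 1. Rps16 was the 1 member in which every p110g-/- library lay below every WT library, which held for 1.93% of all genes. The spread between libraries was larger than in whole tumors, with a median coefficient of variation of 19.2% in WT and 15.4% in p110g-/- TAM. Summed macrophage markers did not overlap between these groups, at 27985 to 34844 CPM in WT and 36134 to 39826 CPM in p110g-/- TAM. None of the 14 markers passed the test, and 6 had a fold change below 0 (median log2 fold change 0.16). The part of these markers in the members' values was not tested.

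Rps16 (gene ID 20055), a small subunit protein close to the decoding site, held 12794, 12374, 15238 and 16241 normalized counts in WT TAM 1 to 4. It held 11924, 12072, 11211 and 11126 in p110g-/- TAM. The groups touched no value of each other, but the test across all genes was not passed (−0.28, SE 0.11, adjusted p = 0.71). Rpl27 (gene ID 19942) held 1904, 1787, 2172 and 2415 in WT, against 1517, 1545, 1713 and 1899 in p110g-/- TAM. Its groups overlapped by p110g-/- TAM 4 (−0.31, SE 0.12, adjusted p = 0.73). Rpl13 (gene ID 270106) held 13421, 11512, 16899 and 17540 against 12091, 10216, 13176 and 11682, also with overlap (−0.32, SE 0.15, adjusted p = 0.92).

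Same-numbered TAM libraries deviated together from their group means, with correlations of 0.472 to 0.847 across genes. WT TAM 3 with p110g-/- TAM 4 (0.704) and WT TAM 4 with p110g-/- TAM 3 (0.777) lay in the same range. Other pairs of different numbers stood at −0.812 to 0.137. Equal numbers are thus not shown to mark pairs. With the number as a replicate block, Rpl27 alone of the members fell (−0.31, adjusted p = 0.048), where 2.5% of all genes passed. The adjusted p of Rps16 was 0.20 and that of Rpl13 0.12 with the block.

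The members differed more between the TAM numbers than between the genotypes. In WT TAM, libraries 3 and 4 were both above libraries 1 and 2 in 60 of the 63 members, against 30.4% of all genes, and in p110g-/- TAM in 47 of the 63, against 28.4%. The median ratio of libraries 3 and 4 over 1 and 2 was 1.38 in WT and 1.26 in p110g-/- TAM, with 0.995 and 1.00 over all genes. The summed share stood at 2.77%, 2.92%, 4.01% and 4.22% in WT TAM 1 to 4 and at 2.84%, 2.95%, 3.56% and 3.46% in p110g-/- TAM. With the mitochondrially encoded genes taken out of the totals, WT TAM 1 to 4 stood at 2.84%, 3.01%, 4.35% and 4.67%, and p110g-/- TAM at 2.92%, 3.05%, 3.91% and 4.05%. The labels do not say what a number marks, and this split was made after the values were seen.

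Members differed in how far they followed the numbers. Rpl41 held 18012, 18076, 36774 and 41398 in WT TAM 1 to 4 and 19460, 20341, 39451 and 42072 in p110g-/- TAM. Rpl9, a large subunit protein, had WT values of 19761, 20050, 40471 and 45402 and p110g-/- TAM values of 21543, 20310, 35580 and 40793. These values give ratios of numbers 3 and 4 over 1 and 2 of 2.17 and 2.05 for Rpl41 and of 2.16 and 1.83 for Rpl9. Rpl14 was nearly level, at 20630, 20079, 21832 and 22240 in WT and 19375, 20694, 20791 and 21293 in p110g-/- TAM. Rpl11 was the 1 member of the 63 whose highest WT TAM value lay in library 1. Its WT TAM values were 9058, 3720, 5283 and 5191, by library number. The p110g-/- values of Rpl11 were 8191, 3683, 7088 and 9217. Library 2 was its lowest in both genotypes, a trait not particular to Rpl11. WT TAM 2 was the lowest of its group in 37 members, and p110g-/- TAM 2 in 21.

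**Figure D3:**
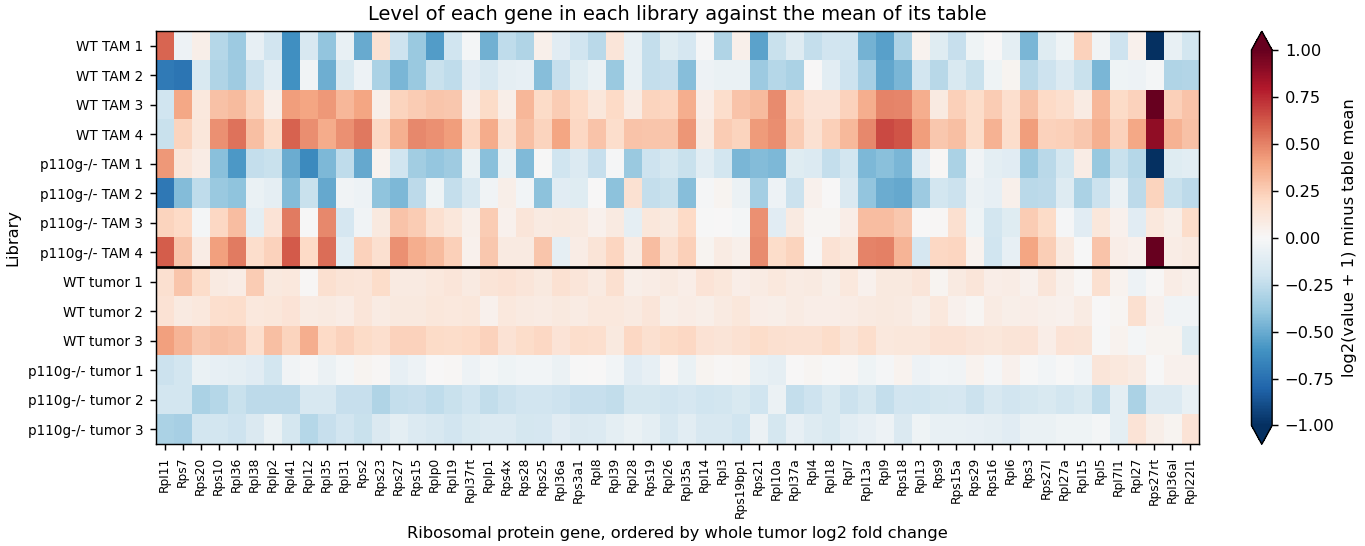
log2(normalized count + 1) of 58 of the 63 members in each of the 14 libraries, minus the mean of that member over the libraries of its table; the colour scale ends at −1 and 1. TAM libraries 1 and 2 are mostly blue and 3 and 4 mostly red in both genotypes, while the whole tumors split by genotype with smaller differences.

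Fibroblast and matrix markers and the mitochondrial share also followed the numbers. The fibroblast and matrix markers summed to 79.3, 814, 1522 and 1666 CPM in WT TAM 1 to 4 and to 23.6, 270, 1264 and 839 CPM in p110g-/- TAM, against 7460 to 8476 CPM in whole tumors. None of the 12 markers was at 0 in every library of a group. Their part in the ribosomal protein values was not tested. Within numbers 1 and 2, 36 of the 63 members had a lower mean in p110g-/- TAM, and within numbers 3 and 4 it was 55. The share of all genes with a lower mean was not counted. The median log2 fold change of the members was −0.02 within numbers 1 and 2 (−0.004 over all genes). Within numbers 3 and 4 it was −0.13 (−0.03 over all genes).

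Fitted on numbers 1 and 2 alone, none of the members and none of 12215 genes passed (limma), with 209 genes at an unadjusted p below 0.05. Fitted on numbers 3 and 4 alone, 9 members passed, where 11.3% of all genes did. The 8 that fell were Rpl10a, Rpl12, Rpl13, Rpl27, Rpl31, Rpl36a, Rpl6 and Rps16, and Rpl11 rose (0.63, SE 0.11, adjusted p = 0.0089). The largest of the 8 was Rpl31, which held 10146 and 11085 in WT TAM 3 and 4 and 7189 and 7481 in p110g-/- TAM 3 and 4 (−0.53, SE 0.07, adjusted p = 0.0020). These fits have 2 libraries per group and were added after the values were seen.

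The genotype effect in TAM minus that in whole tumor had a median of 0.17 over the members, against −0.02 over all genes. No member passed the test of that difference, where 0.145% of all genes did. At an unadjusted p below 0.05 stood Rps4x (0.33, SE 0.14) and Rps20 (0.31, SE 0.14), against 6.49% of all genes. With the replicate block, Rplp2 passed (0.37, adjusted p = 0.030), where 2.64% of all genes did. None of the 8 members that fell in whole tumor is thus shown to differ in its genotype effect from TAM.

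The summed share of the 63 members was higher in whole tumor than in sorted TAM, 1.80 times in WT and 1.71 times in p110g-/-. The tables were normalized separately, so these levels are shares of each library total and carry no test. The log2 of the TAM over the whole tumor share was below 0 in 62 of the 63 members, with a median of −0.79 in WT and −0.74 in p110g-/-. The same values over all genes were not computed, so how far the members depart from other genes is not shown. Averaged over the genotypes, the lowest values were those of Rpl13 (−1.70 in WT and −1.93 in p110g-/-), Rps7 (−1.83 and −1.41) and Rpl5 (−1.38 and −1.49); in WT alone Rps20 (−1.48) was below Rpl5. At the other end of the averages stood Rps27rt (0.97 and 0.65), Rpl22l1 (−0.03 and −0.27) and Rpl9 (−0.16 and −0.16).

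**Figure D4:**
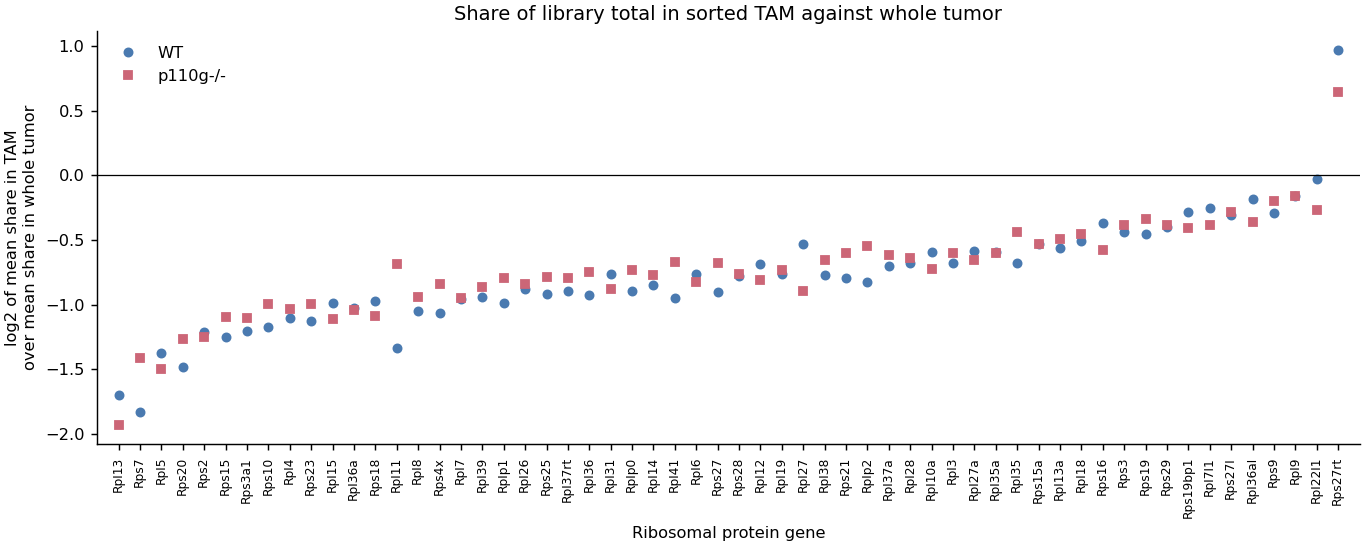
log2 of the mean share of the library total in TAM over that in whole tumor for 58 of the 63 members, for WT (circles) and p110g-/- (squares). All members drawn but Rps27rt lie below 0 in both genotypes, and Rpl13, Rps7 and Rpl5 are lowest in the average of both genotypes, by which the members are ordered.

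Most proteins of the ribosome are present in equal numbers, but their mRNAs were not at equal levels. In mean share of the library total, which grows with transcript length, Rplp0 (1805 CPM), Rps2 (1298), Rpl4 (1291), Rpl3 (1268) and Rps9 (1176) led in TAM, and Rplp0 (3182), Rps2 (3041), Rpl4 (2710), Rps3a1 (2272) and Rps4x (2125) in whole tumor. Per kilobase of an annotated transcript, Rpl41, Rplp1 and Rps18 were the highest in TAM at 1950, 1922 and 1847 CPM per kb, and the same genes led in whole tumor at 3428, 3576 and 3759. The median member had 815 CPM per kb in TAM and 1198 in whole tumor. Transcript lengths came from a gene annotation and not from these libraries, so the order per kilobase depends on it. The lowest shares belonged to Rps19bp1 (19.3 CPM) and Rps27rt (20.2) in TAM and to Rps27rt (11.5) and Rps19bp1 (24.5) in whole tumor.

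Paralogs took a larger part of their family in TAM than in whole tumor. Rpl36al, a close paralog of Rpl36a with which it may share reads, held 93.9% ± 3.13 (SD, n = 4) of the normalized counts of Rpl36a, uncorrected for length, in WT TAM and 96.9% ± 7.89 (n = 4) in p110g-/- TAM. In whole tumors it held 52.1% ± 1.03 (n = 3) in WT and 60.3% ± 1.44 (n = 3) in p110g-/-. The whole tumor genotypes did not overlap, with Rpl36a lower and Rpl36al at 4305, 3984 and 4163 in WT and 4214, 3711 and 4151 in p110g-/- tumors.

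Rpl7l1, a relative of Rpl7, stood at 13.1% ± 1.03 and 13.0% ± 0.56 of Rpl7 in WT and p110g-/- TAM, and at 7.97% ± 0.10 and 8.80% ± 0.35 in whole tumors. Rps27l, a p53-inducible relative of Rps27, stood at 19.99% ± 2.23 and 18.7% ± 2.24 of Rps27 in TAM and at 13.0% ± 0.89 and 14.0% ± 0.27 in whole tumors. For these pairs no TAM library came down to a whole tumor library. The ratios lie within a library and do not depend on its scaling, and they were not tested.

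**Figure D5:**
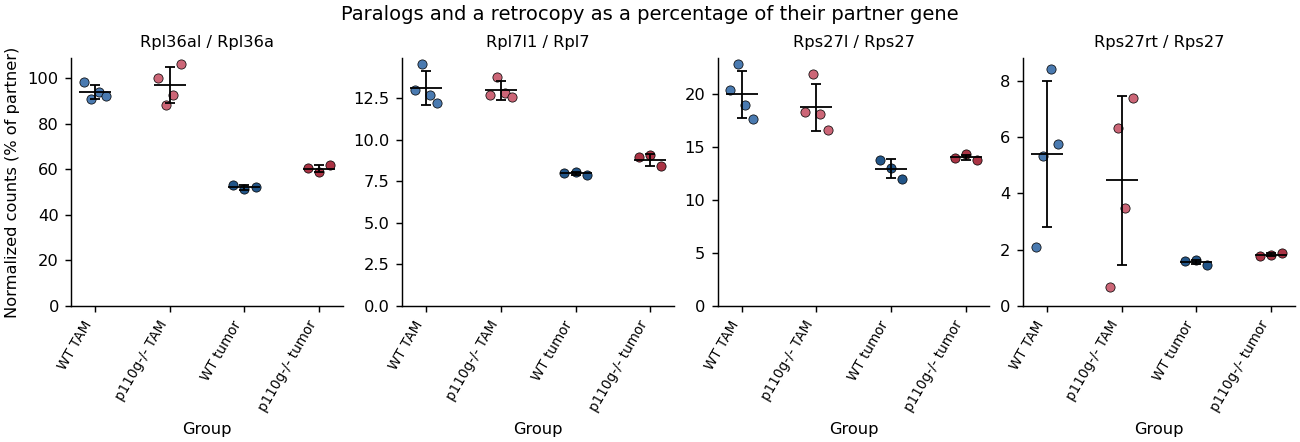
Normalized counts of Rpl36al, Rpl7l1, Rps27l and Rps27rt as a percentage of those of the partner gene in each library, with mean and SD of each group. The first 3 ratios are higher in every TAM library than in any whole tumor, and Rps27rt spreads over more than its mean in TAM.

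Rps27rt varied most between libraries in TAM, and little between whole tumors. It held 240, 515, 1298 and 970 normalized counts in WT TAM 1 to 4 and 78, 611, 562 and 1337 in p110g-/- TAM, against 281 to 321 in all whole tumors. As a percentage of Rps27 this was 5.41 ± 2.59 in WT and 4.47 ± 3.01 in p110g-/- TAM, and 1.56 ± 0.08 and 1.82 ± 0.05 in whole tumors. The first 50 transcribed bases of Rps27 and Rps27rt share an exact stretch of 38 bases, part of which shows in the lines printed above. Reads can therefore be split between the copies, and the level of Rps27rt is uncertain. Processed pseudogenes of most ribosomal protein genes raise the same limit for the other members.

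Genes related to the ribosome were set beside the members. Fau and Gnb2l1 (Rack1), ribosomal proteins with other symbols, had whole tumor log2 fold changes of −0.21 and −0.20, and neither passed (adjusted p 0.16 and 0.19). Of 20 other TOP mRNAs, mostly translation factors, 19 were below 0 in whole tumor with a median of −0.19, and 1 fell: Eif3f, a subunit of initiation factor eIF3, from 7457 ± 113 to 6408 ± 199 (SD, n = 3 each; −0.22, adjusted p = 0.041). The exception was Eif4a2 at 0.24 (adjusted p = 0.075).

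Of the 76 mitochondrial ribosomal proteins, 71 were below 0 in whole tumor with a median of −0.12. The 3 that fell were Mrpl34 (−0.43, adjusted p = 0.035), Mrps26 (−0.29, adjusted p = 0.045) and Mrpl17 (−0.25, adjusted p = 0.041). Their summed share was 0.948 times that of WT, against 0.872 for the cytosolic members. The 35 genes of ribosome biogenesis and RNA polymerase I had a median of −0.05 with 24 below 0. None of them fell, and Mdn1, which remodels the precursor of the large subunit, rose (0.32, adjusted p = 0.029).

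The 20 S6 kinase and mTOR translation genes had a median of 0.00 in whole tumor, with 10 below 0 and none past the test. Of 11 genes of ribosome quality control and stress, Mdm2, the ligase that Rpl11 and Rps7 can bind, rose from 1975 ± 82.6 to 2514 ± 107 normalized counts (SD, n = 3 each; 0.35, SE 0.05, adjusted p = 0.024). In TAM no gene of any of these lists passed, with list medians from −0.08 to 0.03. None of these genes passed the test of the difference between the genotype effects in TAM and whole tumor.

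The authors' deposited tables hold a further value per gene, between 0 and 1 and headed pp, for which the sources used here give no meaning. In the authors' deposited tables it was above 0.95 for none of the 63 members. Its highest values there were 0.942 for Rpl12 in TAM and 0.849 for Rpl38 in whole tumor.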

How the data were processed

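RNA was sequenced from 8 TAM and 6 whole tumor libraries. The submitters' processing notes name Bowtie2, DESeq and the build mm9, without versions or order; the sources used here give neither counter nor annotation. The deposited values are a score: whole numbers, read here as normalized counts that were scaled per library and rounded. The count model planned for raw counts was therefore replaced by limma 3.58.1 (R 4.3.3, mean-dependent prior) on log2(value + 1), for genes with at least 10 in at least 4 TAM or 3 whole tumor libraries. All tests were two-sided, with Benjamini-Hochberg adjustment over all genes tested and a threshold of 0.05. All 63 members passed the filter in both tables. Fold changes are on that log2 scale. CPM was computed from column totals. The deposited pp value, from 0 to 1, is a fraction of unstated meaning.

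The fits were run on simulated counts. The changes put in were larger than those of the members called in whole tumor, and no split by TAM number was put in. That run therefore does not show how the fits treat differences of this size. Groups followed the labels. Same-numbered TAM libraries correlated at 0.847, 0.472, 0.808 and 0.702 in their deviations from the group means over 12475 genes. WT TAM 3 with p110g-/- TAM 4 and WT TAM 4 with p110g-/- TAM 3 correlated at 0.704 and 0.777, so equal numbers are not shown to mark pairs. The block value stands beside TAM results where it changes a call. The numbers come from the labels, which do not say what they mark. For each genotype comparison the members named were those past the test, up to 10, or otherwise the 3 with the smallest p. Also named were the 5 highest shares per table, fixed panels (P stalk, 5S particle, paralogs with partners, members with other roles) and the 3 largest and 3 smallest tissue differences. Members, lists and rules were chosen with earlier results of these data known. Alternatives were another pseudocount, no filter, 3 rescalings, sample weights, the block, a single fit over 14 libraries and leaving out each library. Transcript lengths came from GENCODE M21 for all 63 members. Of the deposited symbols, 21 had been turned into dates and were renamed by identifier. Depth in reads is not given by the normalized counts, so no counting interval is given. Some members are counted in the totals but not reported here by name and not drawn.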

Additional observations from a re-analysis of the deposited data

Results flagged for a closer look

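Rpl39, a short protein of the large subunit's peptide tunnel, had a library far from the others of its group. WT TAM 2 held 5534 normalized counts, while the other WT TAM libraries held 7802 to 8217. The gap was 0.845 of the group's range, above the limit of 0.829 for 4 samples. This was 1 of 134 groups examined, and chance marks about 1 in 20 groups.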

How the results depend on the processing

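The block by replicate number and the other settings moved counts of calls more than fold changes. In TAM (0 members past the test), sample quality weights gave 4 (8.01% of all genes passed), the replicate block 1 and numbers 3 and 4 alone 9. In whole tumor (8), upper quartile scaling gave 16 (4.53% of all genes), sample quality weights 50 (18.1%) and a single fit over 14 libraries 0 (0.118%). Leaving out 1 library at a time gave 0 to 49, where 0.228% to 15.7% of all genes passed. The same-numbered whole tumors correlated at 0.095, 0.076 and 0.178, and those of different numbers at −0.261 to 0.131. With 3 libraries per group, values this close do not decide whether the numbers pair them. The block gave 9 in whole tumor (5.97% of all genes). For the difference of effects (0), weights gave 2 (10.1% of all genes), the block 1 and numbers 3 and 4 alone 2 (5.75% of all genes). The estimation of the weights stopped before its convergence tolerance in TAM and in the difference of effects, 2 of the 3 weighted fits. The cause was not tested; the weights and the single fit change the estimate of the spread, and leaving out a library removes a sample. The block changed no other count of calls by over 1.5 times. The median log2 fold change of the members kept its sign in whole tumor (−0.29 to −0.18) and not in TAM (−0.15 to 0.01). The log2 fold change of Rpl36al in whole tumor ran from −0.080 (without p110g-/- tumor 1) to 0.012 (without p110g-/- tumor 2, adjusted p = 0.93). Without the 5 highest members the summed share was 2.56% in p110g-/- TAM, 4.86% in WT and 4.25% in p110g-/- tumors, by construction; without mitochondrially encoded genes it was 6.48% in WT tumors. Among the values for single members that were labelled, 448 kept direction and side of the threshold, 45 gained the call, 49 lost it and 1 was reversed. These counts do not hold all changes of sign, of which more occurred, mostly in TAM. In whole tumor, Rpl27 took the other sign in 2 of 14 alternatives. Signs were less stable in TAM for some members. Rplp0 and Rps3 took the other sign in 7 of 16 alternatives in TAM and in 0 of 14 in whole tumor. Rps16, Rpl27 and Rpl13 kept theirs in all 16 in TAM. Rescaling to equal totals moved the median of all genes in the difference of effects to −0.12. With 3 or 4 libraries per group, precision is limited by the spread between libraries.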
